A study of Mus musculus with 3 samples.

Results

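The regions described here were the distal H3K4me1 enriched regions that lay between protein-coding genes in mouse islets cultured with a mix of 3 inflammatory cytokines. A region was counted when it held no protein-coding transcriptional start site (TSS), when its midpoint was over 20 kb and up to 100 kb from the nearest such TSS, and when its midpoint was outside the span of every protein-coding gene. On chromosomes 1 to 19, 8536 of 65124 regions met this rule (13.1%, 95% exact binomial interval 12.8 to 13.4), out of 65709 regions in the whole list. They are called distal intergenic regions below.

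Monomethylation of lysine 4 on histone H3 (H3K4me1) is laid down mainly by the Mll3 and Mll4 methyltransferases and marks chromatin of enhancers that are active or poised. Distal enhancers are bound by transcription factors and can act on a promoter over long distances by looping, often passing over nearer genes. In islets, enhancers are bound by factors that keep endocrine identity, such as Pdx1, Nkx6-1, Foxa2, Neurod1, Mafa and Rfx6, while inflammatory cytokines act through STAT factors, the Irf factors, NF-kB and AP-1.

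The list came from 1 ChIP-seq library of pancreatic islets kept for 4 days with cytokines, namely IFNγ at 1.6 ng/ml, TNFα at 0.16 ng/ml and IL-1β at 0.25 ng/ml. The labels give the strain as CD1 and the age as 8 to 12 weeks, while the study's methods name ICR mice with a narrower age range. DNA of 4 ChIP experiments, with islets from at least 10 mice, was pooled before sequencing. The series also holds an untreated and a cytokine treated RNA-seq sample, which were not analysed here. The list has positions only, with no read counts, so the depth is unknown, and with 1 library there is no replicate and no test between groups. Untreated H3K4me1 was not analysed here, so no region below can be said to have appeared, grown or shrunk with the cytokines. Whole islets also hold alpha, delta, vascular and resident immune cells, and a region cannot be placed in any of these cell types. Intervals on shares are 95% exact binomial intervals and cover counting error only, since neighbouring regions are not independent.

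The following 4 sequences come from such regions at islet and at inflammation genes. They are the central 300 bases of regions taken from those with the most different motifs in that window, 1 from the islet gene lists and 3 from the inflammation gene lists, read from the plus strand of mm9, the build of the list. Capitals mark matches, on either strand, to short letter strings that known factors bind.
Scg2, chr1:79343351-79343650: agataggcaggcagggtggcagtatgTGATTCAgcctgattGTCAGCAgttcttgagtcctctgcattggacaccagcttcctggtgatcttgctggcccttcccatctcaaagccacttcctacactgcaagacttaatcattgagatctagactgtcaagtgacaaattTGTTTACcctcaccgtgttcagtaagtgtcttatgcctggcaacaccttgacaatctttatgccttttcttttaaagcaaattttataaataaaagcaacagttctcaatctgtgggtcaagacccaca
Myc, chr15:61720051-61720350: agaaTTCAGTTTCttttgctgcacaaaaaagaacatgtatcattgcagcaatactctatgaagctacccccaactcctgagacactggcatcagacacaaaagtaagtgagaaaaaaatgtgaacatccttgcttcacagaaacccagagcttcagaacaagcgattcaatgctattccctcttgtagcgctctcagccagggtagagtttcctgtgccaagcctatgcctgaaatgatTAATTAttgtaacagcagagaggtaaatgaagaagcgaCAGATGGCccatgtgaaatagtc
Il1b, chr2:129258751-129259050: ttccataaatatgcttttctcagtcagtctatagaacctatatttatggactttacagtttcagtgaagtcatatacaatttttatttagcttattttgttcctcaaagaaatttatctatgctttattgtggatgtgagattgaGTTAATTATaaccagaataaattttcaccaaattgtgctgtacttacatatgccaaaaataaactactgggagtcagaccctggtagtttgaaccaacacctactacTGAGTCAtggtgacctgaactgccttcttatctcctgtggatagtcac
Irf2, chr8:47772351-47772650: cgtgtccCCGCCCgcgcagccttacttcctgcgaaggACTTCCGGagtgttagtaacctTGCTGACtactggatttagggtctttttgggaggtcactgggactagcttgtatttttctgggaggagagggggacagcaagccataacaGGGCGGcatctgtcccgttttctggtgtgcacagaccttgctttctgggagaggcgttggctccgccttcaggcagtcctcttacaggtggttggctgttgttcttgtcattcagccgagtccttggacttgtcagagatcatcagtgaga

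The Scg2 window belonged to a region 93.1 kb downstream of the TSS of the gene for the granule protein secretogranin II. It held an AP-1 match at bases 27 to 33, a MAF match at bases 42 to 48 and a FOXA match at bases 172 to 178. The AP-1 and MAF matches lay close together, and the FOXA match lay apart from them.

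The Myc window, 96.7 kb upstream of the gene for a growth regulator, held an IRF match at bases 5 to 13, a homeodomain match at bases 240 to 245 and a NEUROD E-box match at bases 278 to 285. The Il1b window, 62.0 kb upstream of the gene for the cytokine IL-1β, held an HNF1 match at bases 146 to 154 that contains the homeodomain match at bases 148 to 153, and an AP-1 match at bases 253 to 259. The Irf2 window, 52.6 kb upstream of an interferon regulatory factor, held an SP/KLF match at bases 8 to 13 and another at bases 150 to 155, an ETS match at bases 38 to 45 and a MAF match at bases 60 to 66. These windows were chosen for their motif number and are not typical. Over all distal intergenic regions, 52.6% held none of the 16 motifs searched in the central 300 bases, and no region held more than 5 different ones.

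The distal intergenic regions covered 14.0 Mb, which was 10.1% of the length covered by all autosomal regions. The sequence that meets the same position rule, called eligible sequence below, amounted to 427.7 Mb, or 17.9% of the known autosomal sequence. The regions covered 3.29% of it, at 19.96 regions per Mb. By the same measure, proximal regions outside genes (2 to 20 kb from a TSS) had 23.4 per Mb, distal regions inside genes had 34.0 per Mb, and regions over 100 kb from a TSS had 11.2 per Mb.

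Between 20 and 100 kb the density of the distal intergenic regions fell from each 10 kb bin to the next, with overlapping counting intervals between neighbouring bins. It was 22.1 per Mb at 20 to 30 kb, 20.6 at 40 to 50 kb, 19.01 at 60 to 70 kb and 16.4 at 90 to 100 kb. Outside genes it went on to 14.8 per Mb at 100 to 150 kb and 6.99 per Mb over 200 kb. Inside genes the density was 36.7 per Mb at 20 to 30 kb and 30.8 at 90 to 100 kb, above the intergenic value in each bin. The density of the distal intergenic regions differed between chromosomes, from 14.4 per Mb on chromosome 7 to 24.0 per Mb on chromosome 9.

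**Figure D1:**
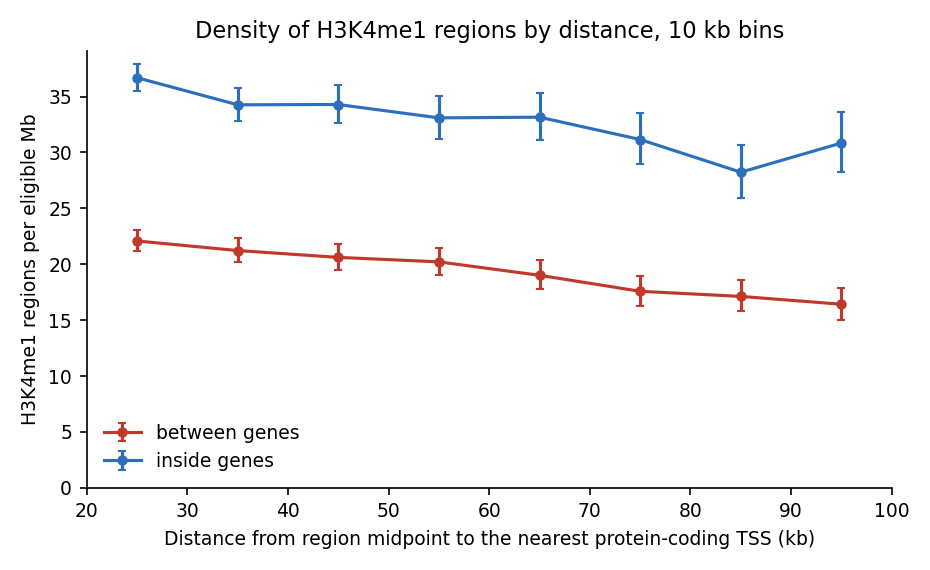
Regions per Mb of eligible sequence (y axis) against the distance from the midpoint to the nearest protein-coding TSS in 10 kb bins (x axis, kb), for regions between genes (red) and inside genes (blue), with 95% exact Poisson intervals that cover counting error only. The intergenic line falls from 22.1 to 16.4 per Mb and stays below the line for regions inside genes in every bin.

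The distance limits cut through a continuous spread. The nearest regions counted were 20013 bp from the TSS of Svip and 20014 bp from that of Prkrir, and the nearest ones left out were 19998 bp from Fam108c and 19992 bp from Pax3. At the far limit, regions 99998 bp from Zfp217 and 99990 bp from Vps8 were counted, and regions 100135 bp from Lpp and 100138 bp from Btc were not.

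The regions were mostly narrow. On the grid of 200 bp bins, widths ran from 200 to 31400 bp around a median of 1000 bp, and the quartiles stood at 600 and 2000 bp and the 90th percentile at 3400 bp. The single-bin width of 200 bp was taken by 170 regions (1.99%), 366 regions (4.29%) were wider than 5 kb, and 51 (0.597%) were wider than 10 kb. In distal regions inside genes 2.53% were wider than 10 kb and the median was 1200 bp, while regions over 100 kb from a TSS had a median of 1000 bp with 0.668% wider than 10 kb. Within the distal intergenic regions the median went from 1200 bp at 20 to 30 kb to 1000 bp at 90 to 100 kb, a step of 1 bin.

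**Figure D2:**
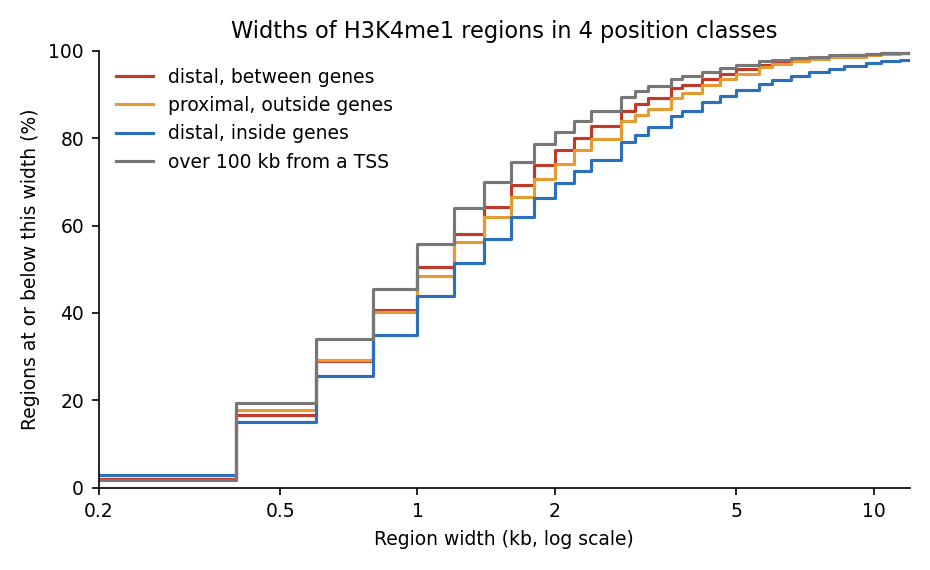
Cumulative share of regions (y axis, %) at or below each width (x axis, kb, log scale) for the distal intergenic regions (red), proximal regions outside genes (orange), distal regions inside genes (blue) and regions over 100 kb from a TSS (grey). The red curve lies between the grey and the orange one from 1 to 5 kb, and the blue curve, with the largest share of wide regions, lies lowest from 400 bp up.

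The widest distal intergenic regions had few features in common besides their size. The widest, 31.4 kb, lay at chr1:135092601-135124000, 34.4 kb upstream of Plekha6 and between Ppp1r15b and Plekha6. It was followed by regions of 27.8 kb upstream of Sept10 and upstream of Cacna1a, the gene for a voltage-gated calcium channel subunit, and by one of 23.4 kb upstream of Nav2. Regions of 19.6 kb lay near Dennd4c and Usp12. A region of 17.2 kb lay 36.9 kb downstream of the TSS of Socs3, an inhibitor of JAK-STAT signalling. One of 18.8 kb lay in the interval between Psma6 and Nfkbia, the inhibitor of NF-kB, with Psma6 as the nearest gene. The other 2 were 17.8 kb near AB041803, with an edge inside a coding gene, and 16.8 kb near Gm6772, which held the annotated start of a 7SK RNA. Of these 10, 5 had a nearest gene whose own TSS was covered by a region of the list.

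The regions lay on both sides of their nearest TSS in about the proportion that the genome offers. Upstream of it were 5149 regions (60.3%, 59.3 to 61.4), and 59.5% of the eligible sequence is upstream, so that the densities were 20.2 per Mb upstream and 19.5 per Mb downstream. The nearest gene had a covered TSS for 47.5% of the regions (46.4 to 48.5), while 39.7% of the eligible sequence has such a nearest gene. The density was 23.9 per Mb beside genes with a covered TSS and 17.4 per Mb beside the others, a ratio of 1.37. The narrowest regions were less often beside such a gene, with 37.6% (30.3 to 45.4) of those 200 bp wide against 47.7% (46.2 to 49.3) of those of 400 to 1000 bp.

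Between coding genes, the regions were denser where a non-coding gene is annotated. The midpoint lay inside a non-coding gene for 550 regions (6.44%, 5.93 to 6.99), against 4.82% of the eligible sequence, or 26.7 against 19.6 per Mb. With distances taken from the start sites of all gene types, the share was 3.28% against 2.96%. Spans of lincRNAs, long RNAs transcribed from between coding genes, held 274 regions at 27.5 per Mb, and those of processed transcripts held 252 at 31.7 per Mb. Pseudogenes held 29 regions at 10.2 per Mb, below the value of the class. A non-coding TSS lay inside 182 regions (2.13%), and within 2 kb of the midpoint of 321 (3.76%). An edge reached into a protein-coding gene in 58 regions (0.679%).

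The regions were spread over many intergenic intervals and were also gathered in some. Of 7205 intervals between neighbouring coding genes with eligible sequence, 3195 (44.3%) held at least 1 region and 1308 held exactly 1. At least 5 regions were in 497 intervals and at least 10 in 73. The 100 fullest intervals held 1111 regions, or 13.0% of the class. Density was lower in long intervals, with 23.0 per Mb in those of 40 to 100 kb, 22.2 in those of 100 to 300 kb, 15.4 in those of 300 to 1000 kb and 10.2 in longer ones. The orientation of the flanking genes went with small differences, at 20.8 per Mb between divergent genes, 19.7 between tandem genes and 19.8 between convergent genes.

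The fullest interval, with 20 regions that cover 61.8 kb, was chr14:24622527-24889295 between Kcnma1, the gene for the large-conductance calcium-activated potassium channel, and Gm6158. The interval between Irf2bp2 and Tomm20 held 19 regions with 52.2 kb, and that between Cebpb and Ptpn1 held 19 with 43.2 kb. Each of these had 160 kb of eligible sequence, so their densities were 125 and 119 per Mb, against 19.96 in the class. Cebpb encodes a transcription factor of inflammation and Ptpn1 a phosphatase of insulin and JAK signalling. Cebpb had 0 kb of eligible sequence, so by the rule no distal intergenic region could have it as its nearest gene. Within 100 kb of its TSS lay 9 distal intergenic regions.

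Each region was given to the protein-coding gene with the nearest TSS, which need not be the gene it acts on. Of 21418 autosomal coding genes, 9902 had eligible sequence and 3858 had at least 1 region. A single region was found at 1856 genes, 380 genes had at least 5, and 25 had at least 10. For 288 genes the distal intergenic regions were their sole regions in the list. The TSS was covered in 47.3% of the genes with a distal intergenic region and in 33.1% of the genes with eligible sequence but no region. The latter also had less eligible sequence, with a median of 15.9 kb against 37.65 kb in genes with 1 region and 114.8 kb in those with 10 or more, and its part in the difference was not tested.

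The most regions, 14, were found at Arhgap32, a GTPase-activating protein, and at Kcnma1. At Kcnma1 all 14 lay upstream, from 20.4 to 94.0 kb, and the widest was 13.0 kb. At Arhgap32 12 of the 14 lay upstream. Foxa2, a pioneer factor of the endoderm and of islets, had 12 regions, all downstream, at 21.8 to 96.0 kb from its TSS in the interval toward Pax1, and together they covered 36.6 kb. Irf2bp2, a corepressor that binds Irf2, had 12 regions covering 44.2 kb, and its TSS was not covered. Ets2, an ETS family factor, Cplx2, the gene for complexin 2 of the exocytosis machinery, Chd7, a chromatin remodeller, Lingo1 and Gm10293 also had 12 each, and Dusp10, a phosphatase of stress-activated kinases, had 11. Of these 10 genes, 7 had a covered TSS, and over all 25 genes with at least 10 regions the share was 52% (31.3 to 72.2), against 46.5% (44.2 to 48.8) in genes with 1 region.

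Of the 24 autosomal entries for islet transcription factors, 13 had a region (54.2%), against 18.01% of all coding genes. They were 13 of the 18 with eligible sequence, against 38.96% of all such genes. Their 45 regions amounted to 42.8 per Mb against 19.96. After Foxa2, the highest number was at Nkx6-1, a homeodomain factor of beta cells, with 9 regions. Of these, 6 lay downstream at 51.5 to 98.9 kb, the widest of them 10.8 kb, and 3 narrow ones lay upstream at 35.1 to 38.4 kb. The TSS of Nkx6-1 itself was not covered. Pdx1, the master factor of pancreas and beta cells, had 2 upstream regions, of 1.0 kb at 23.0 kb and of 3.4 kb at 34.4 kb, and 20.6 kb of eligible sequence.

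Glis3, Isl1 and Pax6, which are needed for endocrine development, had 4 regions each. Those of Isl1 were downstream at 48.2 to 58.0 kb, and those of Pax6 upstream at 52.6 to 92.9 kb. Nkx2-2, a further homeodomain factor of endocrine cells, had 3 upstream regions at 36.5 to 60.5 kb that covered 8.0 kb. No region was found at Neurod1 or Mafa, which had 0 and 1.8 kb of eligible sequence, nor at St18, which had 160 kb. The 12 regions of Foxa2 make up a large part of the list's 45, and its median gene had 1 region.

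Genes of hormones and secretion had 32 regions at 35.3 per Mb, at 10 of 30 genes (33.3%), against 18.01% of all coding genes. Of the 14 with eligible sequence 10 had a region, against 38.96% of all such genes. Scg2 had 7 regions, 5 downstream and 2 upstream, each at most 2.8 kb wide. Slc30a8 had 6 regions, 3 on each side, at 47.9 to 90.1 kb and up to 5.6 kb wide. Chga, the gene for chromogranin A, had 4 regions of 1.0 to 2.6 kb within 22.0 to 33.7 kb upstream. Pcsk1, a prohormone convertase, and the hormone genes Ins1 and Sst had 3 each. The regions of Ins1 were at 36.0 and 69.8 kb upstream and at 69.2 kb downstream, and the 3 of Sst at 47.8 to 56.6 kb downstream. Ins2 had no region in 45.8 kb of eligible sequence, and Abcc8 and Kcnj11, the genes for the subunits of the ATP-sensitive potassium channel, had no eligible sequence.

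Receptors and signalling genes of the applied cytokines had 36 regions at 34.1 per Mb, at 15 of 29 genes (51.7%), against 18.01% of all coding genes. Of the 22 with eligible sequence 15 had a region, against 38.96% of all such genes. Ifngr1, a subunit of the IFNγ receptor, had 3 upstream regions, of 0.8 kb at 20.8 kb, 3.2 kb at 60.4 kb and 1.4 kb at 65.3 kb. Il1r1, the signalling receptor of IL-1β, had 3 upstream regions of at most 0.6 kb at 37.0 to 51.2 kb. Map3k7, the kinase that links IL-1β and TNFα receptors to NF-kB, had 4. The most regions of this list, 9, were at Tnfaip3, the gene for A20, a feedback inhibitor of NF-kB. They lay on both sides, 6 upstream at 46.6 to 89.6 kb and 3 downstream at 21.2 to 79.0 kb, and covered 16.0 kb.

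Socs1, a feedback inhibitor of IFNγ signalling, had 2 downstream regions, of 8.4 kb at 28.0 kb and of 1.6 kb at 35.6 kb. Nos2, the inducible nitric oxide synthase, had 2 upstream regions, of 8.6 kb at 34.6 kb and of 0.4 kb at 42.1 kb.

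Transcription factors of inflammation had the highest density of the 10 lists, with 46 regions at 65.2 per Mb. These regions belonged to 11 of 38 genes (28.9%), against 18.01% of all coding genes. Of the 14 with any eligible sequence 11 had a region, against 38.96% of all such genes. Myc and Jun, a subunit of AP-1, had 8 regions each. Those of Myc lay at 30.5 to 96.7 kb, 4 on each side, and were at most 2.4 kb wide, and 6 of the 8 of Jun lay upstream. Fos, the partner of Jun in AP-1, had 6 regions with 14.0 kb, and Nfkbiz, an inducible cofactor of NF-kB, had 6 downstream regions with 13.8 kb. Atf3, a stress-induced factor, and Irf2 had 5 upstream regions each. Stat2, Rela, Nfkb1 and Irf9 had no region of this class and no eligible sequence, while a region covered the TSS of each of them.

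Chemokine genes, whose products draw leukocytes, had 13 regions at 31.0 per Mb, at 6 of the 17 entries with eligible sequence. These were 6 of all 29 entries (20.7%), a share near the 18.01% of all coding genes. This count was 15 when every gene with a TSS within 100 kb was counted, while that over all coding genes went from 3858 to 7270 of 21418, and 3 with regions of at least 1000 bp. Cxcl13 had 4 regions, all downstream at 28.0 to 54.8 kb, and Cxcl12 had 3 upstream at 22.6 to 96.8 kb. Cxcl5 and Ccl8 had 2 each, and Ccl2 and Ccl1 had 1 each. Cytokine genes had 16 regions at 13.3 per Mb, at 9 of 29 genes (31.0%) or 9 of the 21 with eligible sequence. Over all coding genes the share was 18.01%, and over those with eligible sequence it was 38.96%. Regions of at least 1000 bp were at 3 of the 29 cytokine genes and at 2753 of the 21418 coding genes. Lif had 3 downstream regions, the widest of 8.6 kb. Il1b had 3 upstream regions, of 7.8 kb at 40.4 kb, 2.2 kb at 49.2 kb and 1.4 kb at 62.0 kb. Tnfsf15, Csf1 and Il10 had 2 each, and Il33 had 1. Ifng had none in 103.5 kb and Il6 none in 83.8 kb of eligible sequence.

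Lists of other cells in an islet preparation had densities of 11.5 to 16.0 per Mb, against 19.96 over all genes. The shares of exocrine and of endothelial and stromal genes with a region were above the 18.01% of all coding genes. That of leukocyte genes was below it. Exocrine and duct genes had 8 regions at 4 of 20 genes (20%), of which 4 were at Spp1, leukocyte genes had 3 at 2 of 19 genes (10.5%), Runx3 and C1qa, and endothelial and stromal genes had 10 at 6 of 19 genes (31.6%), with 3 at Flt1, 2 at Col1a1 and 2 at Kdr. Trithorax group genes, which encode the H3K4 methyltransferases and their partners, had 2 regions, both at Wdr5. Only 2 of these 12 genes had any eligible sequence, 0.0729 Mb in all, which made 27.4 per Mb. Counted over genes with eligible sequence, a region was at 4 of 13 exocrine, 2 of 10 leukocyte and 6 of 13 endothelial and stromal genes, against 38.96% of all such genes. All of these lists are short. In every list but the islet transcription factors and the receptors the median gene had 0 regions, as it had over all coding genes. The densities rest on 0.0729 to 1.20 Mb of eligible sequence a list.

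**Figure D3:**
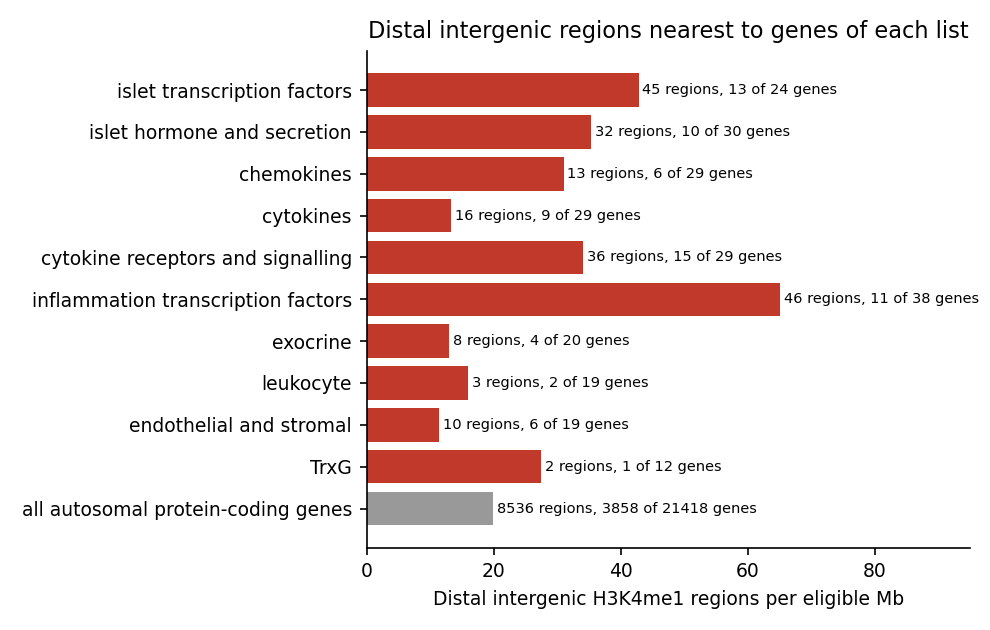
Distal intergenic regions per Mb of eligible sequence (x axis) nearest to the genes of 10 lists (red) and to all autosomal protein-coding genes (grey), with the number of regions and of genes beside each bar. Inflammation transcription factors (65.2) and islet transcription factors (42.8) have the longest bars, and cytokines (13.3), exocrine (13.0), leukocyte (16.0) and endothelial and stromal genes (11.5) lie below the 19.96 of all genes.

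The base composition of the regions differed from that of their surroundings. In the central 400 bp the median GC content was 46.5% (quartiles 42.5 and 50.5), against 44.25% in 400 bp windows 5 kb outside the edges that touched no region of the list. The observed over expected ratio of CpG, the dinucleotide that methylation depletes, was 0.272 in the regions and 0.197 in the flanks. CpG-rich windows, with at least 50% GC and a ratio of at least 0.6, made up 2.69% of the regions (2.36 to 3.06) and 0.358% of the flanks (0.270 to 0.466). The share was 0.635% in distal regions inside genes, 0.846% in those over 100 kb from a TSS, 3.76% in proximal regions outside genes and 31.2% in regions that covered a TSS. Windows of 400 bp reach beyond the region where it is 200 bp wide.

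Motifs were searched on both strands, as short strings without a weight matrix, so a match is only the presence of these letters. The strings were TGANTCA for AP-1, TTCCNGGAA for STAT, GGGANTTTC for NF-kB, GAAACNGAA for IRF, TGTTTAC for FOXA, CAGATGGC for the NEUROD E-box, GTTGCCATG for RFX and TGCTGAC for MAF. The others were TAATTA for homeodomain factors, TGATTGAT for PDX1-PBX, GTTAATNAT for HNF1, CACGTG for the MYC E-box, GGGCGG for SP/KLF and CCGGAAGT for ETS, with CTCF and REST by longer strings. An AP-1 match can overlap a MAF match, and a homeodomain match can lie within an HNF1 match.

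Motifs of islet factors were found more often in the central 400 bp of the regions than in their flanks. FOXA matches were in 9.09% of the regions (8.49 to 9.72) and in 5.10% of the flanks (4.75 to 5.46), a ratio of 1.78. NEUROD E-boxes were in 3.44% (3.07 to 3.85) and 1.86% (1.65 to 2.08), a ratio of 1.85. The ratio was 1.64 for RFX, 1.49 for MAF, 1.56 for HNF1 and 1.29 for homeodomain matches, each with intervals apart. The PDX1-PBX string gave 1.44% in the regions and 1.69% in the flanks, with overlapping intervals. Over all 65120 autosomal regions with known bases, the shares were 8.05% for FOXA and 2.96% for the NEUROD E-box. FOXA was in 7.57% of proximal regions outside genes, 9.38% of distal regions inside genes and 10.5% of regions over 100 kb from a TSS. For the NEUROD E-box these shares were 3.53%, 3.36% and 3.55%, so neither motif was particular to the distal intergenic regions.

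Of the motifs of inflammatory factors, AP-1, a string with fewer fixed letters than the others, was in 16.9% of the regions (16.1 to 17.7) against 11.8% of the flanks (11.3 to 12.3), a ratio of 1.43. The share of AP-1 was 8.57% in regions that covered a TSS, 16.2% in proximal regions outside genes, 15.9% in distal regions inside genes and 18.2% in regions over 100 kb from a TSS, and 14.8% over all. STAT matches were in 1.91% (1.63 to 2.22) against 1.14% (0.978 to 1.32), a ratio of 1.67. NF-kB matches were in 1.73% (1.47 to 2.03) against 1.31% (1.14 to 1.502), a ratio of 1.32 with intervals that just overlap, and IRF matches in 3.08% (2.73 to 3.47) against 2.98% (2.72 to 3.27), a ratio of 1.03.

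CTCF, which anchors chromatin loops and boundaries, had the highest ratio with these windows and flanks. Its motif was in 90 regions (1.05%, 0.849 to 1.29) and in 0.176% of the flanks (0.116 to 0.256), a ratio of 5.99. The ratio was 9.48 in the central 200 bp, 3.94 over whole regions and 4.38 with flanks at 10 kb, where that of REST was 9.01. The share was 0.526% (0.400 to 0.679) in distal regions inside genes, 0.459% (0.334 to 0.616) in those over 100 kb from a TSS and 2.01% (1.68 to 2.39) in proximal regions outside genes, all with intervals apart from that of the distal intergenic regions. The SP/KLF string was in 9.57% against 4.30% of the flanks and the ETS string in 0.656% against 0.280%. Both strings hold CG, as does the MYC E-box with 6.39% against 5.29%, and the part of the CpG content in these values was not tested. REST matches were in 5 regions and 6 flanks.

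**Figure D4:**
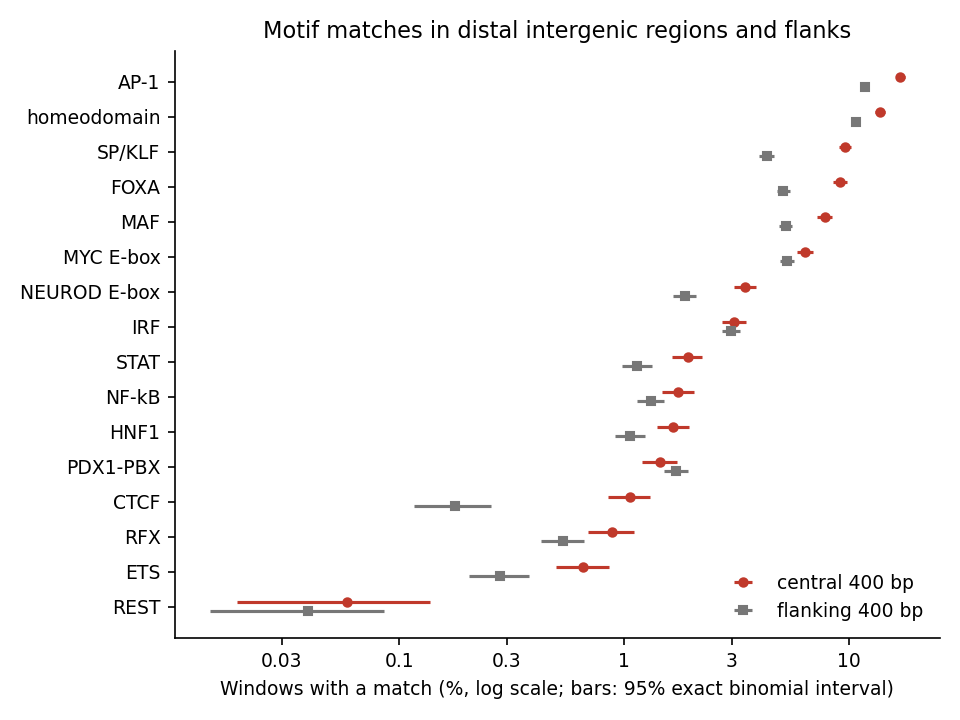
Share of windows with at least 1 match (x axis, %, log scale) for 16 motifs in the central 400 bp of the distal intergenic regions (red) and in 400 bp flanks 5 kb outside their edges (grey), with 95% exact binomial intervals. The red point lies to the right of the grey one for every motif but PDX1-PBX, with overlapping intervals for IRF, PDX1-PBX, NF-kB and REST and the widest distance for CTCF.

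Matches to AP-1, FOXA, the NEUROD E-box and CTCF, picked for the plot, were densest near the midpoints, which did not hold for all 16 motifs. AP-1 matches rose from 332 per Mb at 2200 to 2400 bp left of the midpoint to 501 per Mb in the 200 bp just left of it, and were at 344 per Mb at 2200 to 2400 bp on the right. FOXA went from 148 to 257 and back to 139 per Mb, NEUROD E-boxes from 45.7 to 94.3 and back to 46.3 per Mb, and CTCF from 8.79 to 28.7 and back to 10.5 per Mb. The highest bin was at 200 to 400 bp right of the midpoint for NF-kB (49.2 per Mb) and HNF1 (47.4 per Mb) and at 400 to 600 bp left of it for IRF (83.8 per Mb), and PDX1-PBX was at 32.8 per Mb in the 200 bp right of the midpoint and at 59.7 per Mb at 1800 to 2000 bp. The share of centres with a match differed with width for some motifs. FOXA matches were in 9.18% (8.07 to 10.4) of the regions up to 600 bp wide, 10.9% (9.67 to 12.2) of those of 800 to 1200 bp and 6.43% (5.23 to 7.80) of those over 2400 bp. MAF matches went from 9.70% (8.56 to 10.9) to 5.82% (4.68 to 7.14) and CTCF matches from 1.41% (0.983 to 1.95) to 0.541% (0.234 to 1.06) between the narrowest and the widest group, the last with intervals that overlap. AP-1 was in 16.5% (15.1 to 18.02) of the narrowest, 18.7% (17.2 to 20.3) of those of 800 to 1200 bp and 14.6% (12.9 to 16.5) of the widest. NF-kB went from 1.89% to 2.17% and the MYC E-box from 6.44% to 6.97% between the narrowest and the widest group, both with overlapping intervals.

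**Figure D5:**
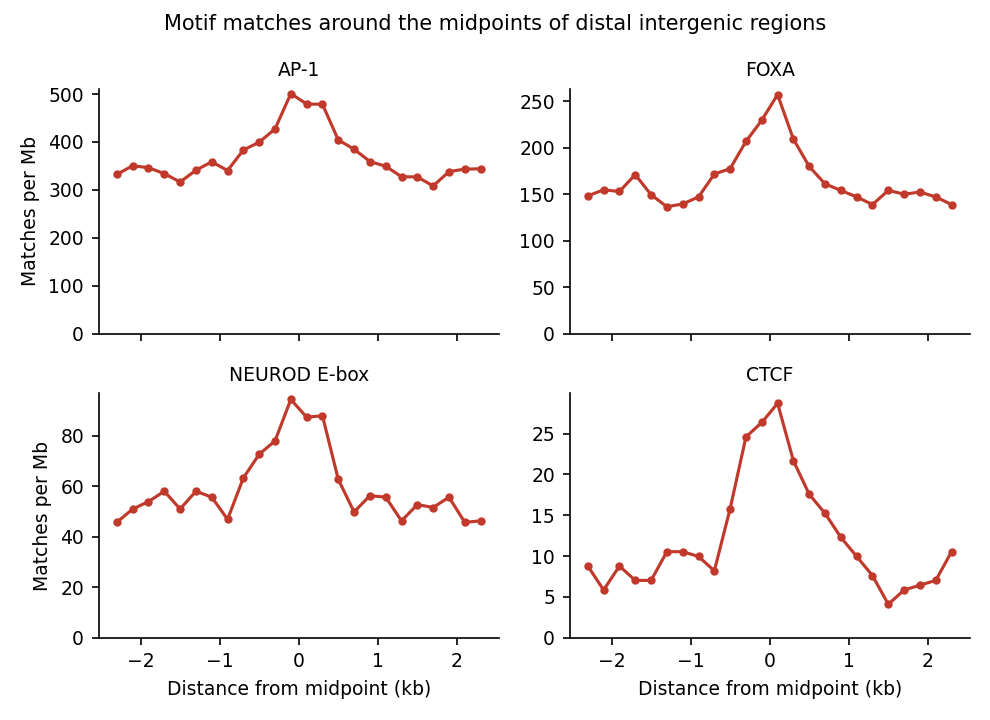
Motif matches per Mb (y axis, from 0, a scale for each panel) in 200 bp bins by distance from the midpoint of the distal intergenic regions (x axis, kb), for AP-1, FOXA, NEUROD E-box and CTCF. Each line peaks within 200 bp of the midpoint, at 501, 257, 94.3 and 28.7 matches per Mb.

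The distal intergenic regions at listed genes were few, and the intervals on their motif shares wide. AP-1 matches were in 10 of 46 regions at inflammation transcription factors (21.7%, 10.9 to 36.4) and in 7 of 45 at islet transcription factors (15.6%, 6.49 to 29.5). FOXA matches were in 3 of 46 (6.52%, 1.37 to 17.9) and in 4 of 45 (8.89%, 2.48 to 21.2). The intervals overlap for both motifs and hold the shares of the whole class. ETS matches, named after the values of 16 motifs in 4 lists were seen, were in 3 of 46 regions at inflammation transcription factors (6.52%, 1.37 to 17.9), against 0.656% of the class. They were in 0 of 45 at islet transcription factors, 0 of 36 at receptors and signalling genes and 0 of 32 at hormone and secretion genes, with upper bounds of 7.87%, 9.74% and 10.9%.

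The regions were set apart from each other more than those inside genes. The median gap to the nearest region of any kind was 7600 bp (quartiles 3200 and 19200), and 42.4% (41.3 to 43.4) had no other region within 10 kb. This share was 27.9% in distal regions inside genes and 52.3% in regions over 100 kb from a TSS. A neighbour within 2 kb was found for 14.1% and one within 600 bp for 128 regions. In 62 cases, 2 distal intergenic regions were separated by at most 600 bp, of which 58 had a gap of 600 bp, 4 a gap of 400 bp and 0 a gap of 200 bp. These paired regions had a median width of 400 bp, and the GC content was 42.5% in the gaps against 47.25% in the centres of the regions on both sides.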

How the data were processed

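H3K4me1 ChIP-seq was from 1 pooled library of cytokine treated islets. Reads were mapped by the authors to NCBI37/mm9 with Bowtie2 (2.2.1 in the submitters' processing notes), and enriched regions were identified with ChromHMM, whose version and settings are not given in the sources used here. The deposited list holds chromosome, start and end on a 200 bp grid, with no score or count, so depth and signal are unknown. ChromHMM calls each bin as enriched or not, so widths and gaps come in whole bins and depend on its cutoff.

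Regions were assigned with GENCODE M1 on NCBIM37 (mm9). Distances given for genes, upstream and downstream, run from the region midpoint to the nearest TSS of the gene. Eligible sequence was sampled every 100 bp, without unknown bases. Motifs were searched in the central 400 bp, leaving out regions with unknown bases. Some items that met these rules are not reported here. Named genes were the 10 with the most regions, the 10 widest regions, the 3 fullest intervals, up to 6 genes a list, and those nearest each limit. Other listed genes, including those at 0, were named after their values were seen. The regions, the 10 gene lists (islet transcription factors, islet hormone and secretion, chemokines, cytokines, cytokine receptors and signalling, inflammation transcription factors, exocrine, leukocyte, endothelial and stromal, and TrxG, for trithorax group) and the motifs were chosen with earlier results of these data known. Ccl28, Irak1, Cebpd and Kdm6a were not among the autosomal coding genes used. Intervals were exact binomial for shares and exact Poisson for the densities in the plot by distance. The scripts were tested on simulated data and run in Python 3.11.15 using scipy 1.17.1, pandas 2.3.3, numpy 2.4.6 and, for plots, matplotlib 3.10.9. Alternatives varied the minimum width, merging, distance measure, start sites, gene overlap, motif window, flanks and gene assignment.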

Additional observations from a re-analysis of the deposited data

How the results depend on the processing

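No paired analysis was possible because all regions came from a single pooled library, and no replicate could be left out. With no score in the list, a minimum width stood in for a stricter threshold. At a minimum of 1000 bp there were 5067 distal intergenic regions, 12.0% of the autosomal regions kept, at 11.8 per Mb and with a median width of 1800 bp, by construction, while 44.3% had a nearest gene with a covered TSS and 7.22% lay in a non-coding gene. In this setting a TSS counted as covered only by regions of at least 1000 bp. The eligible share beside it, 39.7%, was still taken with regions of all widths. Distance from the nearest edge gave a share of 12.8%. With start sites of all gene types, 56.3% were upstream (54.9% of the eligible sequence), 32.8% had a nearest gene with a covered TSS (22.4%) and 3.28% lay in a non-coding gene (2.96%). With the most 5′ TSS of each gene, 64.5% were upstream (63.7%) and 34.8% had a nearest gene with a covered TSS (30.4%). The share with a covered TSS stayed above that of the eligible sequence in these settings, while the upstream share was close to it throughout, and the non-coding share came close to it with start sites of all gene types. The other 37 values for these 7 results moved by less than their interval or, for counts, by less than 1.5 times.

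All 48 motif ratios from other windows or flanks kept their side of 1. CTCF went from 5.99 to 9.48 in the central 200 bp, 3.94 over whole regions and 4.38 with flanks at 10 kb, RFX from 1.64 to 2.33 and REST, on few matches, from 1.498 to 9.01 with those flanks. When every gene with a TSS within 100 kb was counted, 15 chemokine genes, 14 cytokine genes, 9 exocrine, 5 leukocyte, 10 endothelial and stromal and 7270 coding genes in all had a region, and Cebpb had 9. At 1000 bp, 3 chemokine, 3 cytokine, 1 leukocyte and 3 endothelial and stromal genes had one. The cause of these shifts was not tested.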
